A study of Homo sapiens with 12 samples.

Results

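The 39 genes described here make up the stress response that runs through the transcription factor ATF4 and the unfolded protein response of the endoplasmic reticulum (ER). They were taken by gene symbol, as a list of known function, from the 57820 gene entries that each file lists, and the list was drawn up with earlier results of these data known. By role they fall into 8 stress regulators, 12 genes of amino acid supply and tRNA charging (the amino acid arm) and 3 ER sensor genes. The others are 13 ER chaperones and folding enzymes (the ER chaperone arm) and 3 genes of ER-associated degradation. The group called sensor genes holds ATF6, ERN1 and the factor XBP1. They were followed in 12 libraries of poly(A) RNA in 5 groups, from 2 human squamous carcinoma lines with altered levels of KLF5, a zinc-finger transcription factor of epithelial cells. In the head and neck carcinoma line BICR31, 3 libraries came from cells given an siRNA that silences KLF5 (siKLF5) and 3 from cells given a negative control siRNA (siNC). The lung carcinoma line HCC95 overexpressed an empty vector, KLF5 WT or the mutant form KLF5 E419Q, with 2 libraries of each. Both HCC95 vectors with an insert were therefore compared with the same pair of empty-vector libraries. The labels do not name the clones, the vector's promoter, the siRNA sequence or the hours until harvest.

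ATF4 mRNA is present in unstressed cells, and the protein is made efficiently when the initiation factor eIF2 is phosphorylated, by kinases that sense amino acid shortage, ER stress, lack of haem or viral RNA. ATF4 then switches on amino acid transporters, enzymes of asparagine, serine and one-carbon metabolism, tRNA synthetases, and regulators such as DDIT3 and TRIB3 that limit or end the response. Unfolded proteins in the ER activate the membrane sensors PERK, IRE1 (gene ERN1) and ATF6, and cleaved ATF6 and spliced XBP1 in turn raise chaperones, disulfide isomerases and degradation factors of the ER. The levels below are of poly(A) RNA, and they do not report translation of ATF4, splicing of XBP1 or cleavage of ATF6.

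KLF5 RNA followed the labels: it was 2.63-fold lower with siKLF5 than with siNC, and 2.87-fold higher with WT and 2.99-fold higher with E419Q than with the empty vector. BICR31 levels are units of a deposited normalised signal, whose most frequent low value was 7.87 to 9.12 units, by library. If that value is 1 count, a library held about 1922358 to 2296191 counts. Only 81.7% to 82.7% of values above 0 were whole multiples of it (within 0.02), so this depth is an estimate and counts were not recovered. HCC95 levels are counts scaled to the library's total (CPM), with 3074139 to 4643792 counts per library. A fold change in BICR31 is on the scale of log2(signal + 1). One in HCC95 comes from the edgeR fit with its own library factors (TMM), so it need not equal the ratio of the CPM printed. A gene is said to have risen or fallen where its adjusted p was under 0.05 over all genes tested, with limma in BICR31 (15710 genes) and edgeR's quasi-likelihood test in HCC95 (12933 genes). All 39 genes passed the filters on low values and were tested in each of the 4 comparisons. Where libraries are said not to overlap, this describes the genes named, most of them already called. The share of all genes without overlap is not given here, so such statements add no support to a call. The labels do not say whether each library is its own culture, so the p-values measure only how these libraries vary, and that variation may be technical. In such bulk samples fewer cells of a kind and less RNA per cell cannot be told apart.

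Markers of squamous epithelium (KRT5, KRT14, KRT6A, KRT17, TP63, DSG3 and DSC3) were present in every group. Their summed level was 78141 to 81999 units with siKLF5 against 121263 to 124754 units with siNC. In HCC95 it was 18531 to 19583 CPM with the empty vector, 21886 to 23029 CPM with WT and 13069 to 13861 CPM with E419Q. The 7 markers did not all move with their sum. With siKLF5 1 rose and 5 fell, with WT 6 rose and 1 fell, and with E419Q against the empty vector 3 rose and 4 fell. Between E419Q and WT none rose and 5 fell. A list of 11 fibroblast, endothelial and immune markers summed to 2791 to 3137 units with siKLF5 against 1252 to 1418 units with siNC. Of the 6 that were tested with siKLF5, COL1A1, COL1A2, CD68 and VWF rose and none fell, with log2 fold changes from -0.95 to 1.34. The T-cell marker CD3E was at 0 in all 12 libraries. In HCC95 the same sum was 87.4 to 91.9 CPM with the empty vector, 68.4 to 72.7 CPM with WT and 89.8 to 95.8 CPM with E419Q. Only 3 of the list were tested there. With WT 1 fell, with E419Q against the empty vector 1 rose and 1 fell, and against WT 2 were higher. The part of these marker shifts in the results below was not tested.

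Compared per transcript length, the most abundant of the 39 transcripts in control cells were the same 6 in both lines, in different order. In HCC95 with the empty vector they were CANX at 1376 ± 43.2 TPM (a level per transcript length, SD, n = 2), SLC3A2 at 700.3 ± 57.0, SLC7A5 at 641.2 ± 23.8, CALR at 627.8 ± 44.7, HSP90B1 at 606.7 ± 46.5 and ATF4 at 494.8 ± 2.58 TPM. In that order, neighbours from SLC3A2 to HSP90B1 did not differ beyond their spread. The lowest levels were those of EDEM1 (10.9 TPM), CHAC1 (10.7), ATF6 (10.6) and the sensor ERN1 (7.46 ± 3.39 TPM). In BICR31 with siNC, units per effective length placed CALR first, then SLC7A5, CANX, HSP90B1, SLC3A2 and ATF4, and CHAC1 last.

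Promoter stretches are shown for the genes whose windows hold the letters that ATF6 or ATF4 is known to bind, since the arms are compared below. RefSeq windows from 250 bases before to 50 after the start, on GRCh38.p14 (the files' counts are on hg19), were matched for 36 of the 39 genes, all but PSPH, SHMT2 and PDIA3. The ER stress response element, bound by ATF6 with NF-Y, was searched on both strands as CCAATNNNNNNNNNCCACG. It occurred in 6 of the 36 windows (16.7%), against 27 of 35116 windows of all genes (0.0769%). Those were 5 of 12 in the ER chaperone arm (HSPA5, HSP90B1, CALR, CANX and CRELD2), XBP1 among the sensor genes, and 0 of 10 in the amino acid arm. Capitals mark the match on the gene's strand, so that a match on the other strand begins with the letters CGTGG. HSP90B1 holds 2 matches, and no match overlapped one of another motif.
HSPA5: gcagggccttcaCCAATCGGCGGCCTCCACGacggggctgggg
HSP90B1: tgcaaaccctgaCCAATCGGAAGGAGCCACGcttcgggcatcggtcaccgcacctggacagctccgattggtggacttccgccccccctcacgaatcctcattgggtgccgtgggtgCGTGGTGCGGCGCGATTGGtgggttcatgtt
CALR: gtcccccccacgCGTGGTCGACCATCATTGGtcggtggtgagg
CANX: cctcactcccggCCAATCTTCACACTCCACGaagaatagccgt
CRELD2: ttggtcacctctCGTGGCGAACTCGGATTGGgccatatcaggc
XBP1: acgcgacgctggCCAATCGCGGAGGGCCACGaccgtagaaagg

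The windows lie at chr9:125241379-125241421 on the minus strand for HSPA5, 78 to 36 bases before its start, and at chr12:103930204-103930351 on the plus strand for HSP90B1, 206 to 59 bases before. Those of CALR (chr19:12938372-12938414, plus strand, 237 to 195 bases before), CANX (chr5:179698766-179698808, plus strand, 163 to 121) and CRELD2 (chr22:49918542-49918584, plus strand, 92 to 50) are also upstream of the start. The XBP1 stretch lies at chr22:28800591-28800633 on the minus strand, 64 to 22 bases before its start.

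The C/EBP-ATF response element, bound by ATF4 with a C/EBP partner, was searched on both strands as TGATGNAA. It occurred in 6 of the 36 windows (16.7%), against 3.62% of all windows. These were 3 of 10 in the amino acid arm (ASNS, AARS and SLC3A2, the last one after the start and not shown), the regulators ATF3 and CHAC1, and HERPUD1, while 0 of 12 in the ER chaperone arm held it. A match on the other strand ends in the letters CATCA.
ASNS: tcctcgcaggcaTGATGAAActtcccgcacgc
AARS: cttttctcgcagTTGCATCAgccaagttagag
CHAC1: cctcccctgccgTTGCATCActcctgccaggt
ATF3: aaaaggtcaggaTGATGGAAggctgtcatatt
HERPUD1: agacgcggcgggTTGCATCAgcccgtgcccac

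These stretches lie at chr7:97872457-97872488 (minus strand) for ASNS, 80 to 49 bases before the start, at chr16:70289674-70289705 (minus strand) for AARS and at chr15:40953250-40953281 (plus strand) for CHAC1. Those of ATF3 (chr1:212565204-212565235) and HERPUD1 (chr16:56931954-56931985) are on the plus strand, 203 to 172 and 188 to 157 bases before the start. The KLF-type letters CCNCNCCC, searched in the same way, occurred in 28 of the 36 windows (77.8%) against 56.2% of all windows, in 7 of 10 of the amino acid arm and 9 of 12 of the ER chaperone arm. A match is a description of letters in a window and shows no binding. The genes were listed for known roles in these pathways, so shares above those of all windows are a description and no test.

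**Figure D1:**
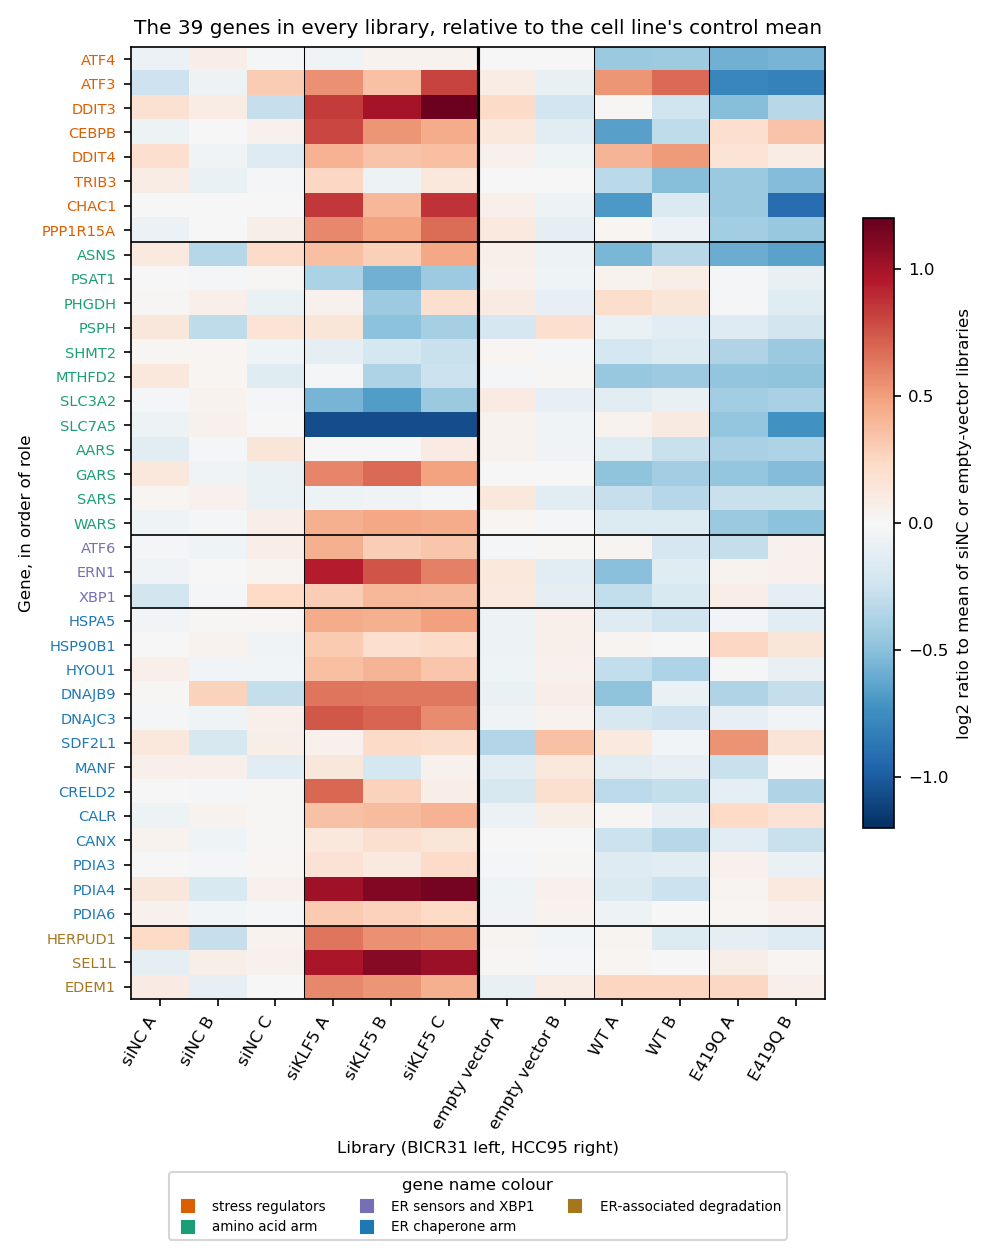
Colour gives the log2 ratio of each of the 39 genes (rows, in order of role) in each of the 12 libraries (columns) to the mean of the siNC libraries for BICR31 or of the empty-vector libraries for HCC95. Red is higher and blue lower; SLC7A5 is the darkest blue row with siKLF5, and ATF4 and most of the amino acid arm are blue in both E419Q libraries.

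With KLF5 silenced, BICR31 had higher RNA of most ER genes and lower RNA of part of the amino acid arm, with ATF4 itself near its control level. Of the 39 genes 23 rose, where 15.3% of all genes tested rose, and 4 fell, where 10.8% of all genes fell. The median log2 fold change was 0.36 over the 39 genes and 0.04 over all genes. Over all genes the calls were 2404 higher and 1693 lower with the values as deposited, and 2005 higher and 2129 lower after quantile normalisation, under which 21 of the 39 rose and 5 fell.

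Among the stress regulators 5 of 8 rose with siKLF5 and none fell, with a median log2 fold change of 0.58. ATF4 (ENSG00000128272.10) measured 5160, 5492 and 5480 units with siKLF5 and 5091, 5644 and 5266 units with siNC. These libraries overlapped, and the fold was 1.01 (95% interval 0.928 to 1.10, limma adjusted p = 0.905). DDIT3, the pro-apoptotic factor CHOP, stood at 230.1, 257.7 and 290.6 units with siKLF5 against 145.3, 136.8 and 105.9 units with siNC. It rose 2.01-fold (log2 fold change 1.01, SE 0.243, limma adjusted p = 0.00505), with every siKLF5 library above every siNC library. PPP1R15A, the GADD34 subunit that brings a phosphatase to eIF2 and restores translation, rose from 1138 ± 55.3 to 1701 ± 110 units (SD, n = 3, limma adjusted p = 0.000131). CEBPB, a partner of ATF4 on DNA, rose 1.51-fold, DDIT4, an inhibitor of mTORC1 signalling, rose 1.29-fold, and the stress factor ATF3 rose 1.49-fold. TRIB3, a pseudokinase that restrains ATF4, had a fold of 1.08 with overlapping libraries. CHAC1, which breaks down glutathione, was at 147.9, 108.3 and 149.6 units against 81.8, 82.1 and 81.3 units, and did not pass the test (log2 fold change 0.70, limma adjusted p = 0.119). The ATF3 call was lost without siKLF5 A (limma adjusted p = 0.0780), siKLF5 C (0.159), siNC A (0.116) or siNC B (0.0818), and with no filter on low values (0.0515). That of DDIT4 was lost without siNC C (0.0587).

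The amino acid arm was divided: 4 of its 12 genes fell, 2 rose, and the median log2 fold change was -0.13. SLC7A5 (ENSG00000103257.4), the light chain of the LAT1 transporter for large neutral amino acids, measured 12994, 12960 and 12996 units with siKLF5 against 26008, 28210 and 27309 units with siNC. It fell 2.09-fold (log2 fold change -1.06, SE 0.0384, limma adjusted p = 5.94e-12), the lowest log2 fold change of the 39 genes. SLC3A2, the heavy chain that carries SLC7A5 to the membrane, was at 5752, 5317 and 6228 units against 8327, 8717 and 8356 units, and fell 1.47-fold (limma adjusted p = 1.58e-06). Both chains of that transporter were thus lower in every siKLF5 library. Of the serine pathway, PSAT1, the phosphoserine aminotransferase, fell from 1931 ± 23.1 to 1401 ± 99.9 units (SD, n = 3, limma adjusted p = 0.000500). Its neighbours PHGDH (log2 fold change -0.07) and PSPH (-0.25) did not pass the test, and their libraries overlapped. SHMT2, the mitochondrial serine hydroxymethyltransferase, fell 1.15-fold. MTHFD2, which acts after it in mitochondrial one-carbon metabolism, had a log2 fold change of -0.22 (limma adjusted p = 0.104).

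Of the 4 tRNA synthetases of the arm 2 rose. GARS, for glycine, stood at 2227, 2375 and 2079 units with siKLF5 against 1618, 1441 and 1409 units with siNC and rose 1.49-fold (log2 fold change 0.58, limma adjusted p = 7.54e-05). WARS, for tryptophan, rose 1.36-fold from 2240 ± 104 to 3051 ± 42.3 units (SD, n = 3). AARS, for alanine, and SARS, for serine, had folds of 1.02 (95% interval 0.922 to 1.14) and 0.973 (0.856 to 1.11). ASNS, asparagine synthetase, measured 476.6, 450.0 and 511.8 units against 400.0, 291.8 and 433.6 units, without overlap, but with a limma adjusted p of 0.129. The SHMT2 call was lost without siKLF5 B (limma adjusted p = 0.0726), siKLF5 C (0.114), siNC A (0.0817) or siNC B (0.0866), and MTHFD2 passed the test as a fall without siKLF5 A (0.0328) and after quantile normalisation (0.0299).

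All 3 sensor genes, counted here with the factor XBP1 and without the gene of PERK, rose with siKLF5. ERN1, the IRE1 kinase and nuclease that splices XBP1, was at 558.7, 491.7 and 440.9 units against 281.8, 291.8 and 298.1 units with siNC, a 1.70-fold rise (limma adjusted p = 0.00190). ATF6, the membrane-bound factor released by cleavage, rose 1.27-fold and XBP1 rose 1.28-fold. The siKLF5 libraries of all 3 genes lay above every siNC library. XBP1 lost its call without siKLF5 B (limma adjusted p = 0.0768), siKLF5 C (0.0858), siNC A (0.106) or siNC B (0.0634) and after quantile normalisation (0.0560).

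In the ER chaperone arm 10 of 13 genes rose, none fell, and the median log2 fold change was 0.35. PDIA4 (ENSG00000155660.6), a protein disulfide isomerase, was at 6113, 6500 and 6677 units with siKLF5 against 3318, 2654 and 3116 units with siNC. Its 2.13-fold rise (log2 fold change 1.09, SE 0.0744, limma adjusted p = 1.03e-08) was the highest log2 fold change of the 39 genes. HSPA5, the chaperone BiP that holds the sensors inactive, measured 20304, 20042 and 21079 units against 14618, 15055 and 15203 units and rose 1.37-fold (limma adjusted p = 1.30e-07). Its helpers rose too: the J-domain proteins DNAJC3 (1.59-fold) and DNAJB9 (1.55-fold), and the exchange factor HYOU1 (1.29-fold). The lectin chaperone CALR, calreticulin, rose 1.30-fold from 20992 ± 786 to 27364 ± 662 units (SD, n = 3, limma adjusted p = 7.35e-07). Smaller rises were those of PDIA6 (1.21-fold), HSP90B1, the ER form of HSP90 (1.19-fold), PDIA3, the isomerase that works with CALR (1.13-fold), and CANX, its membrane-bound relative calnexin (1.11-fold). The 3 genes that did not pass were the small cofactors SDF2L1 (log2 fold change 0.16), MANF (fold 0.997, 95% interval 0.797 to 1.25) and CRELD2 (0.35, limma adjusted p = 0.104). The call was lost for DNAJB9 without siKLF5 C (limma adjusted p = 0.0522) or siNC C (0.0647), for PDIA3 without siKLF5 C (0.0771) or siNC B (0.0582), and for CANX after quantile normalisation (0.244, log2 fold change 0.07). CRELD2 passed without siKLF5 C (0.0467).

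The 3 degradation genes all rose. SEL1L, the adaptor of the HRD1 ubiquitin ligase, stood at 3796, 4092 and 3945 units with siKLF5 against 1764, 2015 and 1987 units with siNC, a 2.05-fold rise (limma adjusted p = 1.39e-08). HERPUD1, a membrane component of the same complex, rose 1.48-fold, and EDEM1, which marks misfolded glycoproteins for export, rose 1.43-fold. In none of the 3 did the libraries overlap, and none of the 3 calls was lost in the alternatives tried.

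**Figure D2:**
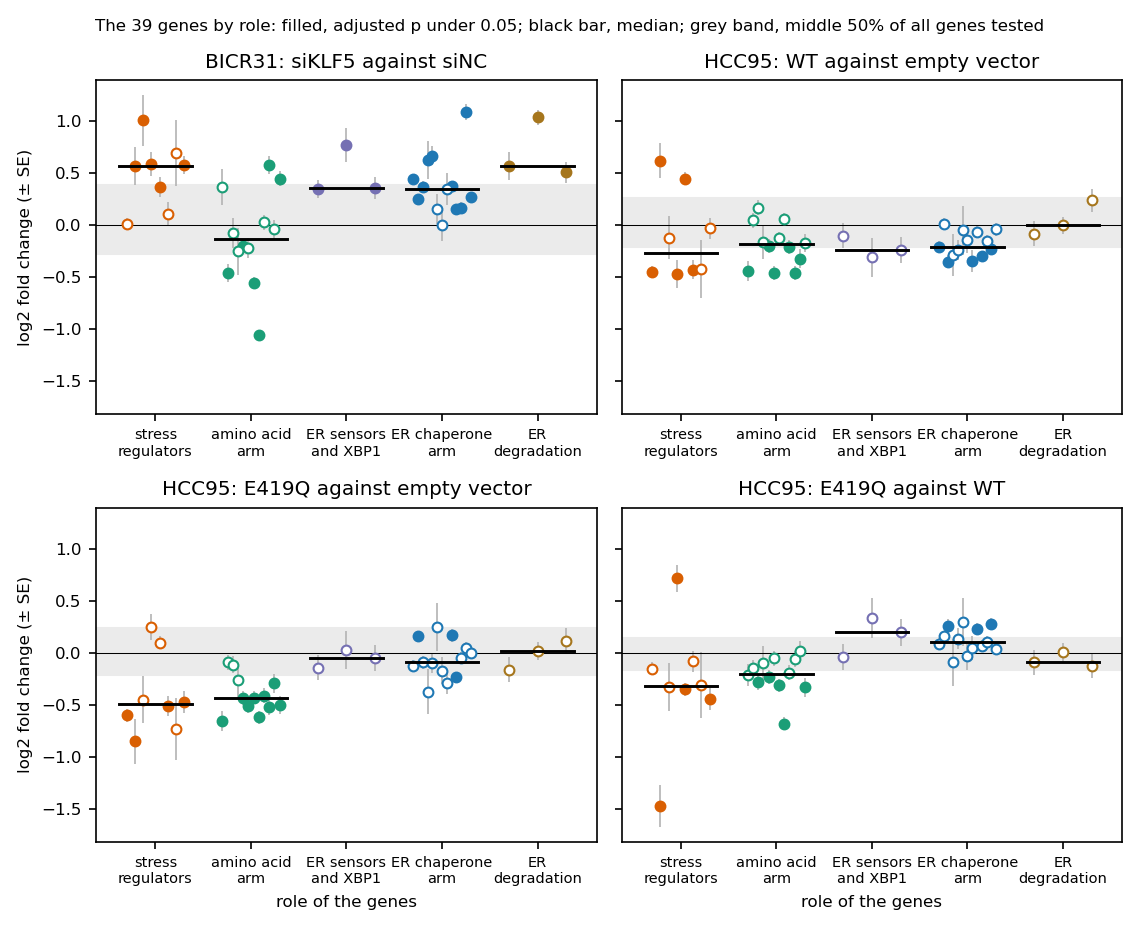
Points are the log2 fold changes (± SE) of the 39 genes by role in the 4 comparisons, filled where the adjusted p was under 0.05, with the median of each role as a black bar and the middle 50% of all genes tested as a grey band. With siKLF5 the ER chaperone arm has a median of 0.35 and the amino acid arm one of -0.13, and with E419Q against the empty vector the medians are -0.09 and -0.43.

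Overexpression of KLF5 WT in HCC95 was followed by lower RNA of ATF4, of 6 of the 12 genes of the amino acid arm and of 5 of the 13 genes of the ER chaperone arm. Of the 39 genes 2 rose, where 10.8% of all genes tested rose, and 14 fell, where 12.1% of all genes fell. The median log2 fold change over the 39 genes was -0.17.

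ATF4 measured 312.2 and 315.8 CPM with WT against 424.8 and 424.7 CPM with the empty vector, a fall of 1.36-fold (log2 fold change -0.45, SE 0.0584, edgeR adjusted p = 7.00e-06). TRIB3 fell 1.35-fold, from 105.4 ± 0.837 to 78.9 ± 7.07 CPM (SD, n = 2, edgeR adjusted p = 0.00134), and CEBPB fell 1.38-fold, from 55.6 and 46.3 to 32.1 and 41.1 CPM. The 2 rises of the 39 genes were both regulators: DDIT4 was at 483.7 and 517.5 CPM against 375.9 and 352.1 CPM (1.37-fold, edgeR adjusted p = 1.10e-05), and ATF3 at 23.3 and 26.1 CPM against 17.1 and 15.1 CPM (1.54-fold, edgeR adjusted p = 0.00998). DDIT3, CHAC1 and PPP1R15A did not pass the test, with log2 fold changes of -0.12, -0.42 and -0.03. ATF3 lost its call without empty vector B (edgeR adjusted p = 0.0910) or WT B (0.109), and with DESeq2 (0.251). CEBPB lost its call without empty vector A (edgeR adjusted p = 0.115) or WT A (0.198), and with DESeq2 (0.130).

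In the amino acid arm the falls with WT were in asparagine and one-carbon synthesis and in tRNA charging, with an arm median of -0.19. ASNS was at 77.1 and 89.4 CPM against 118.1 and 108.1 CPM (1.36-fold lower, edgeR adjusted p = 0.00122). MTHFD2 was at 166.3 and 168.3 CPM against 225.4 and 230.6 CPM (1.37-fold lower, edgeR adjusted p = 3.03e-05). GARS was at 138.5 and 145.5 CPM against 195.3 and 193.4 CPM (1.38-fold lower, edgeR adjusted p = 5.59e-05). In each of these 3 genes both WT libraries lay under both empty-vector libraries. SARS fell 1.25-fold, AARS 1.16-fold and SHMT2 1.15-fold. The transporter chains, which had fallen with siKLF5, did not pass the test with WT: SLC7A5 was at 1937 and 2026 CPM against 1939 and 1829 CPM (fold 1.04, 95% interval 0.954 to 1.14), and SLC3A2 had a fold of 0.919 (0.843 to 1.002). PSAT1, PHGDH, PSPH and WARS had log2 fold changes of 0.05, 0.17, -0.16 and -0.17. The call of SARS was lost without empty vector A (edgeR adjusted p = 0.158) or WT B (0.113), that of AARS without empty vector A (0.133) or WT B (0.259), and that of SHMT2 without any 1 of the 4 libraries compared (0.0527 to 0.175). All 3 were also lost with DESeq2 (0.113 to 0.209), and AARS and SHMT2 with upper-quartile factors (edgeR adjusted p = 0.0700 and 0.0838). SLC3A2 passed as a fall without empty vector B (edgeR adjusted p = 0.0106), and PHGDH as a rise without empty vector A (0.0222) or with upper-quartile factors (0.0465).

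None of the 3 sensor genes and 3 degradation genes passed the test with WT, with log2 fold changes from -0.31 (ERN1) to 0.24 (EDEM1). In the ER chaperone arm the median was -0.21. HYOU1 measured 323.9 and 306.8 CPM with WT against 384.3 and 412.2 CPM with the empty vector and fell 1.28-fold (log2 fold change -0.35, edgeR adjusted p = 0.000267). CANX measured 1825 and 1738 CPM against 2184 and 2182 CPM and fell 1.24-fold (edgeR adjusted p = 0.000142). CRELD2 fell 1.26-fold, PDIA4 1.17-fold and HSPA5 1.16-fold, each with both WT libraries under both empty-vector libraries. HSP90B1 (fold 1.004, 95% interval 0.927 to 1.09), CALR (0.961, 0.882 to 1.05) and PDIA6 (0.974, 0.894 to 1.06) did not pass. The calls of HSPA5 and PDIA4 were lost without empty vector B (edgeR adjusted p = 0.104 and 0.0640) or WT B (0.129 and 0.106). That of CRELD2 was lost without WT A (0.124), WT B (0.101) or empty vector B (0.491, log2 fold change -0.12), and with DESeq2 (0.166). PDIA3 passed as a fall with no filter on low counts (edgeR adjusted p = 0.0278).

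With KLF5 E419Q most genes of the amino acid arm fell, while 10 of the 13 ER chaperones did not pass the test. Of the 39 genes 2 rose with E419Q against the empty vector, where 10.4% of all genes tested rose, and 14 fell, where 10.8% of all genes fell. In the amino acid arm 9 of 12 genes fell and all 12 had a negative log2 fold change, with a median of -0.43.

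ATF4 was at 284.0 and 288.9 CPM with E419Q against 424.8 and 424.7 CPM with the empty vector, a fall of 1.51-fold (log2 fold change -0.60, SE 0.0598, edgeR adjusted p = 1.32e-07). ATF3 was at 9.11 and 8.92 CPM against 17.1 and 15.1 CPM (1.81-fold lower, edgeR adjusted p = 0.00593). TRIB3 fell 1.43-fold and PPP1R15A 1.38-fold. Each of these 4 regulators was lower in both E419Q libraries than in either empty-vector library. CHAC1 (log2 fold change -0.73, edgeR adjusted p = 0.0866), DDIT3 (-0.45), CEBPB (0.25) and DDIT4 (0.10) did not pass. The call of ATF3 was lost without E419Q B (edgeR adjusted p = 0.0548) and with DESeq2 (0.114), and that of PPP1R15A with DESeq2 (0.0506).

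SLC7A5 measured 1363 and 1137 CPM with E419Q against 1939 and 1829 CPM with the empty vector, a fall of 1.54-fold (log2 fold change -0.62, edgeR adjusted p = 1.89e-07). ASNS measured 74.5 and 72.2 CPM against 118.1 and 108.1 CPM, a fall of 1.57-fold (edgeR adjusted p = 3.34e-05). SLC3A2 measured 639.5 and 651.2 CPM against 911.9 and 795.3 CPM, a fall of 1.35-fold (edgeR adjusted p = 1.61e-05). Both chains of the transporter and asparagine synthetase were thus lower in both E419Q libraries. The one-carbon enzymes MTHFD2 and SHMT2 fell 1.43-fold and 1.35-fold. All 4 tRNA synthetases of the arm fell, GARS 1.44-fold, WARS 1.42-fold, AARS 1.32-fold and SARS 1.23-fold. The 3 genes that did not pass are the serine synthesis enzymes, PSAT1 (fold 0.942, 95% interval 0.847 to 1.05), PHGDH (0.929, 0.830 to 1.04) and PSPH (0.835, 0.656 to 1.06). SARS lost its call without E419Q A (edgeR adjusted p = 0.107), E419Q B (0.132) or empty vector A (0.233), and with DESeq2 (0.184).

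In the ER chaperone arm the median with E419Q was -0.09. HSP90B1 was at 1187 and 1103 CPM against 958.2 and 1044 CPM (1.12-fold higher, edgeR adjusted p = 0.0398), and CALR at 871.1 and 830.4 CPM against 705.0 and 773.7 CPM (1.12-fold higher, edgeR adjusted p = 0.0431). CANX was at 1982 and 1808 CPM against 2184 and 2182 CPM (1.18-fold lower, edgeR adjusted p = 0.00192). The other 10 genes did not pass, with log2 fold changes from -0.37 (DNAJB9) to 0.25 (SDF2L1), and neither did the 3 sensor and 3 degradation genes (-0.16 to 0.12). Both rises sat near the threshold. HSP90B1 lost its call without E419Q A (edgeR adjusted p = 0.335), empty vector A (0.265), WT A (0.0575) or WT B (0.0568), with only the 4 libraries compared (0.0512) and with DESeq2 (0.131). CALR lost its call without E419Q A (0.269), E419Q B (0.0830), empty vector A (0.290), WT A (0.0517) or WT B (0.0507), and with DESeq2 (0.155). CANX lost its call without E419Q B (edgeR adjusted p = 0.0691), HSPA5 passed as a fall without empty vector A (0.0415), and so did CRELD2 without E419Q A (0.0481) or empty vector A (0.00189), and with no filter on low counts (0.00949).

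Set against WT directly, E419Q gave lower RNA of 5 of the 12 amino acid genes and higher RNA of 3 of the 13 ER chaperones. Of the 39 genes 4 rose, where 4.41% of all genes tested rose, and 8 fell, where 3.59% of all genes fell. KLF5 RNA itself did not pass the test between these groups (log2 fold change 0.06).

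SLC7A5 was at 1363 and 1137 CPM with E419Q and at 1937 and 2026 CPM with WT, 1.61-fold lower with E419Q (log2 fold change -0.68, SE 0.0637, edgeR adjusted p = 8.53e-08). SLC3A2 was 1.24-fold lower (log2 fold change -0.31, edgeR adjusted p = 0.00155). WARS, PHGDH and SHMT2 were 1.26-fold, 1.21-fold and 1.17-fold lower. ASNS (log2 fold change -0.21), MTHFD2 (-0.05), GARS (-0.06), AARS (-0.19) and SARS (0.02) did not pass between the forms. Each of these had fallen with both forms against the empty vector. Of the ER chaperones PDIA4, at 670.4 and 709.7 CPM with E419Q against 581.2 and 545.3 CPM with WT, was 1.21-fold higher (edgeR adjusted p = 0.00317). HYOU1 was 1.20-fold and CALR 1.17-fold higher with E419Q. Over the arms the medians were -0.20 for amino acid genes and 0.11 for ER chaperones. The call was lost without any 1 of the 4 libraries compared for WARS (edgeR adjusted p = 0.105 to 0.192), PHGDH (0.0546 to 0.301) and SHMT2 (0.0944 to 0.312), and all 3 were lost with DESeq2. HYOU1 lost its call without E419Q A (edgeR adjusted p = 0.160) or WT B (0.170), CALR without E419Q A (0.208), E419Q B (0.0526) or WT B (0.264), and PDIA4 without E419Q B (0.0885) or WT B (0.0989). HYOU1 and CALR were also lost with DESeq2 (0.0624 and 0.0511). HSP90B1 passed as higher with E419Q with only the 4 libraries compared (edgeR adjusted p = 0.0481) and without empty vector A (0.0427) or empty vector B (0.0443).

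The regulators held the largest differences between the forms. ATF3 was 2.78-fold lower with E419Q than with WT (log2 fold change -1.47, SE 0.200, edgeR adjusted p = 2.13e-05), having risen with WT and fallen with E419Q against the empty vector. CEBPB stood at 58.2 and 64.5 CPM with E419Q against 32.1 and 41.1 CPM with WT, 1.65-fold higher (edgeR adjusted p = 0.000725). DDIT4 was 1.27-fold and PPP1R15A 1.35-fold lower with E419Q. ATF4 did not pass (fold 0.901, 95% interval 0.824 to 0.984, edgeR adjusted p = 0.163). PPP1R15A lost its call without E419Q A (edgeR adjusted p = 0.0817), E419Q B (0.125) or WT A (0.122), and with DESeq2 (0.181).

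**Figure D3:**
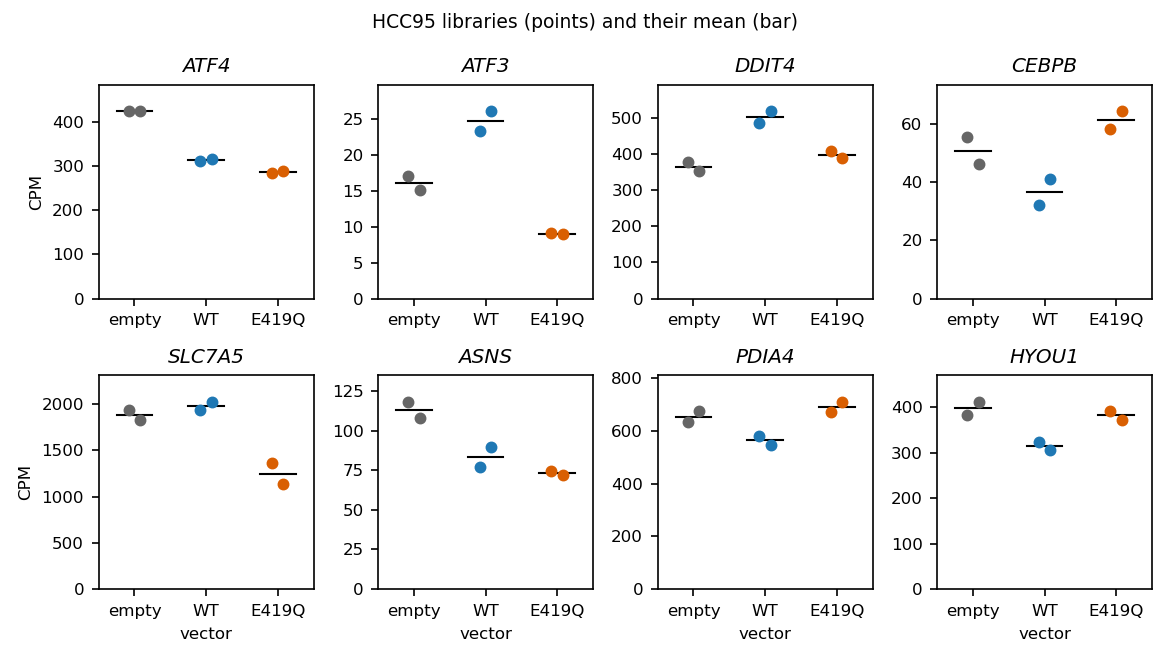
Each point is a library of HCC95 and each bar the mean of its group, in CPM on axes that start at 0, for 4 regulators, 2 genes of the amino acid arm and 2 ER chaperones. ATF4 and ASNS are lower with both forms of KLF5, SLC7A5 is lower with E419Q (1137 and 1363 CPM) but not with WT, and ATF3 is higher with WT and lower with E419Q.

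Of the 6 genes with the ER stress response element shown above, 5 rose with siKLF5, none rose and 3 fell with WT, 2 rose and 1 fell with E419Q against the empty vector, and 1 was higher with E419Q than with WT. Of the 6 genes with the C/EBP-ATF response element, 2 rose and 1 fell with siKLF5, 1 rose and 2 fell with WT, 4 fell with E419Q, and 2 were lower with E419Q than with WT. These counts are descriptions, with the shares of all genes called as given above for each comparison.

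Within each library the 2 arms were then set side by side, as the median over each arm's genes of the log2 ratio to the control mean of the line. In BICR31 the ER chaperone median minus the amino acid median was 0.36, 0.57 and 0.37 in the siKLF5 libraries against -0.01, -0.03 and 0.02 in the siNC libraries. In HCC95 it was 0.38 in each E419Q library, 0.00 and 0.04 in the WT libraries and -0.10 and 0.10 in the empty-vector libraries. The siKLF5 and E419Q libraries thus lay apart from all others of their line, and the WT libraries lay among the empty-vector ones. The control values lie around 0 by construction, since each ratio is to the mean of those same control libraries. With 2 empty-vector libraries the values must mirror each other, so the control spread is not an independent reference. In the siKLF5 libraries the ER chaperone median was 0.24 to 0.35 and the amino acid median -0.29 to -0.01. With E419Q they were -0.03 to -0.02 and -0.41 to -0.40, and with WT -0.16 to -0.13 and -0.16 to -0.15. These HCC95 ratios are of CPM without TMM factors and were taken per library. They therefore differ from the arm medians of the fold changes given above. Only a scaling factor that is the same for all genes of a library drops out of the difference between the arms. One that differs between genes does not, and its part was not tested. The genes were chosen with results of these libraries known, so no test was made of these differences. The summed level of the squamous markers was also lower with siKLF5 and with E419Q than in the controls. The single markers were mixed with E419Q against the empty vector, where 3 of the 7 rose and 4 fell. Against WT none rose with E419Q and 5 fell. The part of these markers in the difference between the arms was not tested.

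**Figure D4:**
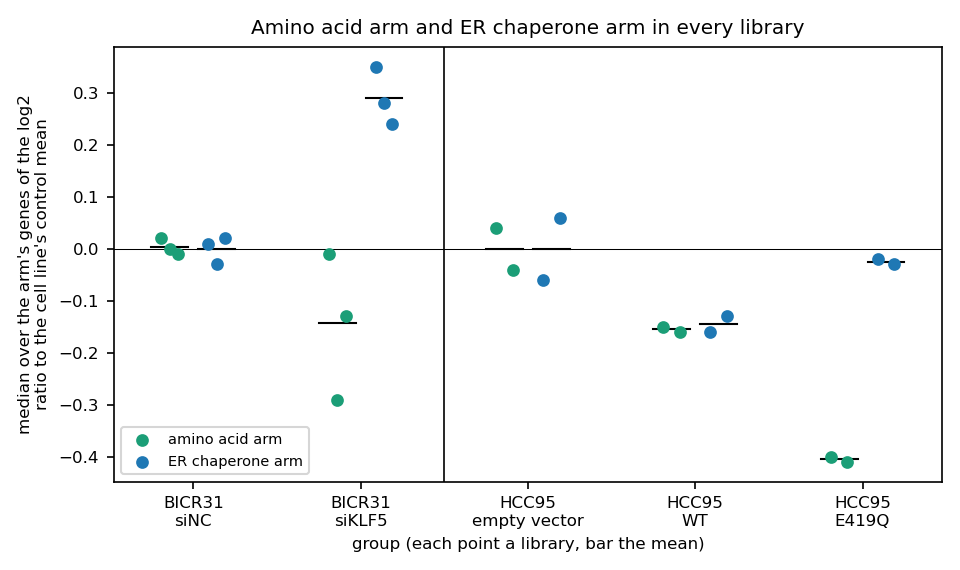
Each point is a library, placed by the median over the amino acid arm (12 genes) or the ER chaperone arm (13 genes) of the log2 ratio to the control mean of its line, with the group's mean as a bar. The arms stand apart with siKLF5 and with E419Q (0.38 in both libraries) and together with WT.

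Silencing in BICR31 and overexpression of WT in HCC95 use separate control libraries, so their directions can be compared. Of the 39 genes 25 were higher with siKLF5 and lower with WT and 3 were the reverse, whereas among the 12432 genes tested in both lines these shares were 25.3% and 23.2%. By arm, the pattern of higher with siKLF5 and lower with WT held for 11 of 13 ER chaperones, 6 of 8 regulators and 4 of 12 amino acid genes. Taken singly, 30 of the 39 genes had a positive log2 fold change with siKLF5 and 31 a negative one with WT. Among the 13 ER chaperones 12 were positive with siKLF5 and 12 negative with WT. Large counts in this field are expected from 2 such one-sided shifts alone, so they do not show that the same genes answered in reverse. The 6 genes CANX, CEBPB, GARS, HSPA5, HYOU1 and PDIA4 rose with siKLF5 and fell with WT, as did 388 of the 12432 genes (3.12%). Of the 39 genes, 23 rose with siKLF5 and 14 fell with WT, so some overlap follows from these counts as well. ATF3 and DDIT4 rose in both comparisons, as did 274 of the 12432 genes, and SHMT2 fell in both, as did 329. Across the 39 genes the correlation of the log2 fold changes was -0.06, and across all 12432 genes it was -0.04 (Pearson's r across genes, which are not independent replicates). The lines also differ in tissue, in the direction of the KLF5 change and in how the values were normalised, and these cannot be told apart.

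**Figure D5:**
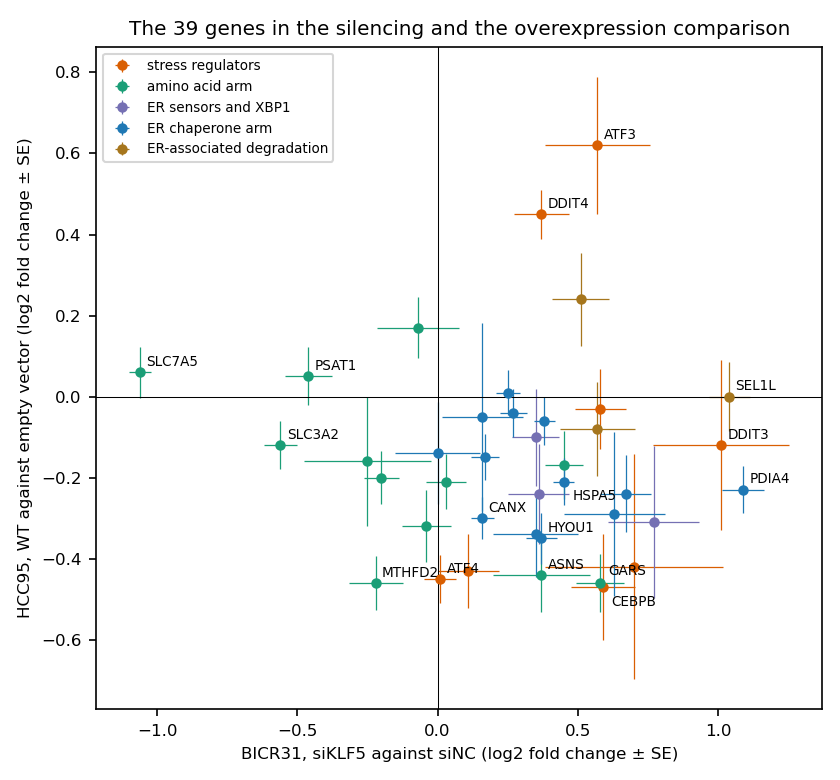
Each of the 39 genes is placed by its log2 fold change (± SE) with siKLF5 in BICR31 (x axis) and with WT in HCC95 (y axis), coloured by role. The lower right field, higher with siKLF5 and lower with WT, holds 25 genes, while SLC7A5 lies far left near 0 on the y axis.

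Other genes of these pathways were taken from lists chosen by function. Over all genes tested, 15.3% rose and 10.8% fell with siKLF5, and 10.8% rose and 12.1% fell with WT. With E419Q against the empty vector these shares were 10.4% and 10.8%, and between the forms 4.41% and 3.59%. The counts of every list below are to be read beside these shares, and several lie near them. Of 30 other ATF4 and integrated stress response genes, 7 rose and 3 fell with siKLF5. GDF15, a stress cytokine, stood at 616.3, 683.3 and 519.7 units against 136.4, 118.5 and 135.5 units (4.61-fold higher, limma adjusted p = 2.19e-07), and JDP2, a repressor of the AP-1 family, fell 2.16-fold. The glutamine transporter SLC38A2 (log2 fold change 0.64) and KLHL24 (1.82), a substrate adaptor of a ubiquitin ligase, rose. In HCC95, where 28 were tested, 3 rose and 11 fell with WT, and 2 rose and 11 fell with E419Q. KLHL24 rose 2.41-fold with WT and 2.04-fold with E419Q. With WT the neutral amino acid transporter SLC1A4 (0.82) and the growth factor VEGFA (0.47) rose and the cystine transporter SLC7A11 (-0.41) fell. With E419Q the secreted glycoprotein STC2 (-1.16) and the proline synthesis enzymes PYCR1 (-0.41) and ALDH18A1 (-0.46) fell. Between the forms 1 gene rose, the glutamine transporter SLC1A5 (0.23), and 3 fell, STC2 (-0.80), VEGFA (-0.67) and SLC38A2 (-0.27).

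Of 16 other cytosolic tRNA synthetases, 8 fell and 1 rose with WT, and 10 fell and none rose with E419Q. MARS, for methionine, fell 1.45-fold with WT and 1.53-fold with E419Q, and YARS, for tyrosine, 1.47-fold and 1.53-fold. IARS (log2 fold change -0.36) and VARS (-0.42) also fell with WT, and TARS (-0.45) and IARS (-0.30) with E419Q. With siKLF5, 5 fell and 2 rose: FARSA (-0.31), IARS (-0.35) and LARS (-0.47) were lower and MARS (0.29) higher. Between E419Q and WT none of the 16 passed with edgeR, and their log2 fold changes ran from -0.18 to 0.17.

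Of 28 other ER folding genes 10 rose and 1 fell with siKLF5. MBTPS1, the protease that cleaves ATF6, measured 4478, 4217 and 4843 units against 2145, 1878 and 1680 units (2.38-fold higher, limma adjusted p = 1.03e-08). P4HB, the founding disulfide isomerase, rose 1.42-fold, ATF6B, the paralogue of ATF6, 1.46-fold and the oxidase ERO1L 1.35-fold. With WT 3 rose and 6 fell, and with E419Q 4 rose and 5 fell. ATF6B rose 1.41-fold with WT and 1.34-fold with E419Q, while TXNDC5 (log2 fold change -0.48 and -0.36), a thioredoxin-like folding enzyme, and UGGT1 (-0.28 in both), which tags unfolded glycoproteins, fell. DNAJC10 (-0.57), a disulfide reductase, fell with WT, and ERP29 (0.38), an ER escort protein, rose with E419Q. Between the forms CREB3L2 (0.42), an ER-bound transcription factor, rose and the prolyl isomerase FKBP14 (-0.64) fell.

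Of 22 ER translocation and N-glycosylation genes 9 rose and 4 fell with siKLF5, none rose and 9 fell with WT, and none rose and 8 fell with E419Q. SRPR, the signal recognition particle receptor, was at 2884, 3142 and 3622 units with siKLF5 against 1209, 1267 and 1201 units with siNC (2.61-fold higher, limma adjusted p = 4.20e-09). In HCC95 it was at 255.3 and 273.7 CPM with the empty vector, 196.2 and 194.9 CPM with WT and 204.6 and 198.5 CPM with E419Q, and it fell with both. RPN2 (log2 fold change 0.29), SEC62 (0.63) and SPCS3 (0.58), of the oligosaccharyl transferase, the translocon and the signal peptidase, also rose with siKLF5. TRAM1, a translocon-associated protein, was at 373.6 and 345.4 CPM with the empty vector against 145.3 and 163.8 CPM with WT (2.34-fold lower, edgeR adjusted p = 9.74e-11) and 161.0 and 182.8 CPM with E419Q (2.13-fold lower, edgeR adjusted p = 5.34e-10). SSR3, a subunit of the TRAP complex beside it, fell 1.44-fold with WT and 1.75-fold with E419Q, SEC61A1, the channel, fell 1.30-fold with WT, and SSR4 fell 1.55-fold with E419Q. Between the forms RPN2 (0.31) rose and SSR3 (-0.28) and SSR4 (-0.35) fell. Of 12 other degradation genes 5 rose with siKLF5, among them SYVN1 (0.51), the HRD1 ligase itself, OS9 (0.33), ERLEC1 (0.62) and UBE2J1 (0.36). With WT UBE2J1 (-0.35), the conjugating enzyme of the complex, was the 1 that fell of 11 tested, and with E419Q UBE2J1 (-0.42) fell and OS9 (0.19) rose.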

How the data were processed

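RNA was purified with RNeasy and poly(A)-selected with NEB reagents, per the labels' protocols. STAR, RSEM and hg19 are named, with edgeR and limma, per the submitters' processing notes, without versions. For BICR31 the authors deposited a normalised signal per gene, and no source used here gives the method. For HCC95 the authors deposited RSEM expected counts, TPM, FPKM (not used) and transcript lengths in bases.

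BICR31 was tested with limma 3.58.1 (mean-variance trend) on log2(signal + 1) for genes averaging 10 units or more. HCC95 was tested with edgeR 4.0.16 on expected counts rounded to whole numbers, with TMM factors, filterByExpr and all 6 libraries in 1 fit. P-values are two-sided and adjusted by Benjamini-Hochberg over all genes, with a threshold of 0.05, in R 4.3.3. Both fits were also run on simulated libraries whose changes were larger than most of those reported here, so smaller changes were not covered. Alternatives were DESeq2 1.42.0, other scaling, filters and pseudocounts, a replicate block, only the 4 libraries compared, and leaving out each library. BICR31 levels per length used HCC95's effective lengths. Pseudogene copies named by a gene's symbol followed by P, with or without a number, held at most 1.44% of that gene's level, for PDIA3. Copies named otherwise were not counted.

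All 39 genes, KLF5 and, of each other list and comparison, up to 4 called genes with the smallest adjusted p are named. The members and lists were chosen with earlier results of these data known. One marker, PECAM1, was not matched and is not used here. Promoters are RefSeq's on GRCh38.p14, used for letters only.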

Additional observations from a re-analysis of the deposited data

How the results depend on the processing

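Of the called genes, 20 of 27 with siKLF5, 8 of 16 with WT, 10 of 16 with E419Q and 5 of 12 between the forms kept their call in every alternative, and no direction reversed. With siKLF5 the ER chaperone median was 0.30 after quantile normalisation and 0.26 to 0.36 when 1 library was left out. With WT against the empty vector DESeq2 called 1 gene up and 9 down, and the amino acid median was -0.15 with upper-quartile factors. Leaving out 1 library gave 1 to 3 genes up, 8 to 14 down, an amino acid median of -0.22 to -0.16 and an ER chaperone median of -0.28 to -0.14. With E419Q against the empty vector the genes up numbered 0 with DESeq2, 1 with only the 4 libraries compared and 0 to 2 when 1 library was left out, and the amino acid median was -0.48 to -0.42. Between E419Q and WT DESeq2 called 2 up and 4 down, and leaving out 1 library gave 1 to 5 up and 4 to 8 down. Where a group is left with 1 library, that library is assumed to vary like the others. Over all genes DESeq2 called 511 up and 626 down with WT (edgeR 1394 and 1568), 573 and 596 with E419Q (1340 and 1397) and 270 and 197 between the forms (570 and 464). The replicate letters did not pair the libraries (correlations of deviations within 0.0342 of 0). With a replicate block 0 genes rose with E419Q against the empty vector, since HSP90B1 (edgeR adjusted p = 0.0528) and CALR (0.0563) missed the threshold, and no other call changed. Low counts limit, among others, CHAC1, ATF3, DDIT3 and DNAJB9 in HCC95, at 5.05 to 26.1 CPM.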

Other observations

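Several genes outside the 39 moved the same way whether KLF5 was silenced or overexpressed. Such a pattern was common: of the 12432 genes tested in both lines, 274 rose and 329 fell with both siKLF5 and WT. The opposite patterns held for 388 genes (up with siKLF5, down with WT) and 217 genes (the reverse). KLHL24 was at 304.0, 291.7 and 275.6 units with siKLF5 against 81.8, 73.0 and 90.3 units with siNC. In HCC95 it was at 54.0 and 61.9 CPM with WT and 46.8 and 52.6 CPM with E419Q against 23.4 and 24.3 CPM with the empty vector, so that it rose in all 3 comparisons with a control. ATF6B did the same, with log2 fold changes of 0.54 (limma adjusted p = 9.91e-06), 0.50 (edgeR adjusted p = 5.59e-05) and 0.43 (edgeR adjusted p = 0.000374). SSR3 fell in all 3, with log2 fold changes of -0.32, -0.53 and -0.81. TRAM1 and SRPR instead rose with siKLF5 (log2 fold changes 0.37 and 1.38) and fell with WT (-1.22 and -0.45) and with E419Q (-1.09 and -0.43). The WT and E419Q values share the empty-vector libraries, and these genes were chosen after their values were seen.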
